A study of Mus musculus with 10 samples.

Results

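The 34 genes described here encode the later steps of the path by which heart mitochondria turn electron flow into exported energy: the nuclear subunits of complex III, cytochrome c, ATP synthase, the inner membrane carriers for phosphate and adenine nucleotides, the creatine kinases and myoglobin. They were taken by symbol from the deposited transcript table after its values were summed per gene: 17 symbols beginning with Atp5, plus 17 named symbols (Uqcrc1, Uqcrc2, Uqcrfs1, Uqcrb, Uqcrh, Uqcrq, Uqcr10, Uqcr11, Cyc1, Cycs, Slc25a3, Slc25a4, Slc25a5, Ckm, Ckmt2, Ckb and Mb). They were 34 of the 11777 gene symbols in the table and were represented by 73 listed transcripts, 15 genes by a single one. Poly(A) RNA was sequenced from the myocardium of C57BL/6 mice that lack natriuretic peptide receptor A in the myocardium only (NPRA-/-, 5 libraries, numbered 217, 227, 231, 240 and 241) and of littermates labelled wild type or NPRA+/+ (5 libraries, numbered 228, 230, 242, 243 and 255). NPRA, encoded by Npr1, is the guanylyl cyclase receptor for atrial and B-type natriuretic peptides. The labels name neither the promoter that drove the deletion, nor the deleted exons, nor the age and sex of the mice. They also do not say that each library came from a separate animal, so the p-values measure the spread between these libraries, which may be technical.

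Complex III passes electrons from ubiquinol to cytochrome c and pumps protons across the inner mitochondrial membrane. Cytochrome c carries the electrons to cytochrome c oxidase, and ATP synthase uses the proton gradient to join ADP and phosphate. The phosphate carrier and the adenine nucleotide translocators bring phosphate and ADP in and ATP out, mitochondrial and cytosolic creatine kinases move the energy to the myofibrils as phosphocreatine, and myoglobin binds oxygen in the cytosol. In heart muscle, which is packed with mitochondria, these transcripts are known to be abundant.

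Several of these proteins exist in forms that differ between tissues or are encoded by several genes. Shown are 3 places where such transcripts or genes differ in base sequence, because the expression values below separate them. A difference in bases there need not change the protein. The phosphate carrier gene Slc25a3 has a pair of mutually exclusive coding exons, one of which is known from heart and skeletal muscle in humans and cattle. In the mouse annotation (GENCODE vM21, GRCm38, minus strand) the exon of Slc25a3-206 lies at chr10:91122207-91122331 and has 125 bases, and that of Slc25a3-201, which Slc25a3-203 also carries, lies at chr10:91121922-91122043 and has 122 bases. Capitals mark the bases that differ when the exons are aligned; 63.5% of the aligned positions were identical.
Slc25a3-206 exon: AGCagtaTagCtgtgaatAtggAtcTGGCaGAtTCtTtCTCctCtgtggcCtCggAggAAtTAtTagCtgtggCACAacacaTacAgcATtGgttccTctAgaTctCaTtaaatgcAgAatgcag
Slc25a3-201 exon: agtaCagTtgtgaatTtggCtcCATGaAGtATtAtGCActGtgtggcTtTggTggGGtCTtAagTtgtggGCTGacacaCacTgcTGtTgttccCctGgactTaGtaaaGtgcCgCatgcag

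The gamma subunit gene Atp5c1, whose protein is the rotating shaft of ATP synthase, has a 37-base exon near the end of its coding sequence. In humans and cattle the corresponding exon is known to be skipped in heart and skeletal muscle. Atp5c1-201 lacks it and ends its coding sequence in the exon after it, whereas Atp5c1-203 and Atp5c1-202 carry it. The coding ends are shown with the last 24 shared bases in lower case and the bases from there to the stop codon in capitals, 4 without the exon and 7 with it; they span chr2:10056158-10059019 and chr2:10056800-10059019 on the minus strand of GRCm38, with the intron left out.
Atp5c1-201: aatcatctctggggctgctgctctGTAA
Atp5c1-203: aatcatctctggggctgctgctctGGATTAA

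Subunit c, which forms the proton-driven ring, is encoded by Atp5g1, Atp5g2 and Atp5g3, whose mature proteins are known to be identical although their import sequences differ. The last 60 coding bases before the stop codon are given for each, at chr11:96073107-96073166, chr15:102663017-102663076 and chr2:73908596-73908655, all on the minus strand of GRCm38. Capitals mark the 18 positions at which the 3 genes are not all alike. Over the whole coding sequence 68.9% of aligned positions were identical between Atp5g1 and Atp5g2 and 67.4% between Atp5g1 and Atp5g3.
Atp5g1-202: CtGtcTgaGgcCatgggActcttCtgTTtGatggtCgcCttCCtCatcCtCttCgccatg
Atp5g2-202: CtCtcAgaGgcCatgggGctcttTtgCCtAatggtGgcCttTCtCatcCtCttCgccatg
Atp5g3-201: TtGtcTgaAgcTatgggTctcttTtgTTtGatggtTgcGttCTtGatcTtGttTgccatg

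Promoter windows of 28 of the 34 genes were available from RefSeq (GRCm38.p6, 250 bases before to 50 after the start), the others being Cyc1, Uqcrb, Uqcrc2, Uqcrq, Atp5a1 and Atp5mpl. Nuclear respiratory factor 1 is a transcription factor known for nuclear genes of mitochondrial proteins, and its site was first described in the cytochrome c gene of the rat. The core of its palindromic site, CGCATGCG, was searched on both strands and occurred in 7 of the 28 windows (25%: Cycs, Uqcrc1, Uqcr11, Atp5g2, Atp5j, Atp5k and Atp5l), against 2.07% of the windows of 27025 genes and 4.37% of those of the 9312 genes that the expression table lists. The ETS core CTTCCGG, which does not overlap it in sequence, was found in 9 (32.1%), against 9.93% and 20.3%, and the estrogen-related receptor site TCAAGGTCA in 1 (3.57%, Atp5g3), against 0.466% and 0.311%. These are matches of letters, given as a description. Windows with the first motif in capitals are shown for 1 gene each of cytochrome c (chr6:50566612-50566641, minus strand), complex III (chr9:108936668-108936697, plus strand) and the subunit c ring (chr15:102671070-102671099, minus strand).
Cycs: ccatgctagctCGCATGCGcgcgcacaaac
Uqcrc1: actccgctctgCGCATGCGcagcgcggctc
Atp5g2: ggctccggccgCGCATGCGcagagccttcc

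The table names no unit; its values were taken as fragments per kilobase of transcript scaled to library size (FPKM) and summed over the listed transcripts of a gene. Each library summed to between 430059 and 453122 FPKM; the number of reads behind a value is not known. Npr1 stood at 4.12 to 5.20 FPKM in NPRA-/- libraries and at 4.30 to 5.05 FPKM in NPRA+/+ libraries, so it did not check the labels; "NPRA-/-" and "NPRA+/+" below mean what the labels say. All 5 cardiomyocyte markers were high in every library, with sums of 13738 to 16347 FPKM in NPRA-/- and 14042 to 16036 FPKM in NPRA+/+ libraries. The atrial light chain Myl7 was above 50 FPKM in 4 libraries, 217 and 227 of NPRA-/- and 230 and 242 of NPRA+/+, and at 0 in libraries 241 and 255. Of 6 atrial markers 5 were listed, and their sum was 299 to 666 FPKM in NPRA-/- and 238 to 870 FPKM in NPRA+/+ libraries. Most of that sum was Nppa, at 296 to 426 FPKM in NPRA-/- and 236 to 804 FPKM in NPRA+/+ libraries. It was so also in libraries 241 and 255 without Myl7, so the sum did not follow Myl7. Sln and Myl7 were at 0 in some libraries. Of 6 skeletal muscle markers only Mylpf was listed, at 0 to 1.603 FPKM in NPRA-/- and 0.201 to 1.58 FPKM in NPRA+/+ libraries. Of 4 brown fat genes 3 were listed, with sums of 603 to 674 FPKM in NPRA-/- libraries and 569 to 687 FPKM in NPRA+/+ libraries, nearly all from Cox8b. Cidea stood at 15.6 to 25.3 FPKM over the 10 libraries. Ucp1 stood at 5.89 FPKM in library 255 of NPRA+/+ and at or near 0 in the others. The brown fat sum was highest in library 242, where Ucp1 was 0, so it did not follow Ucp1. Of 6 adipocyte markers 4 were listed, with sums of 0.267 to 7.37 FPKM in NPRA-/- and 0.410 to 9.02 FPKM in NPRA+/+ libraries.

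The 34 genes made up 5.34% ± 0.0891 of all FPKM in NPRA-/- libraries and 5.28% ± 0.153 in NPRA+/+ libraries (SD, n = 5 each), with ranges of 5.18 to 5.40% in NPRA-/- and 5.10 to 5.48% in NPRA+/+. FPKM is a value per length of transcript, and levels are set side by side between genes on that basis. Whether other effects of transcript length or of shared reads moved the ranks was not tested. By these values 17 of the 34 were among the 100 most abundant genes of the table and 32 among the 1000 most abundant. The plot of all 34 genes by library shows the steps between them. The highest was Mb, which ranked 15th by mean FPKM over the 10 libraries, followed by the adenine nucleotide translocator Slc25a4 at rank 22 and the catalytic beta subunit Atp5b at rank 23. The lowest were the brain-type creatine kinase Ckb at rank 2266 and Atp5s, coupling factor B, at rank 3778.

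**Figure D1:**
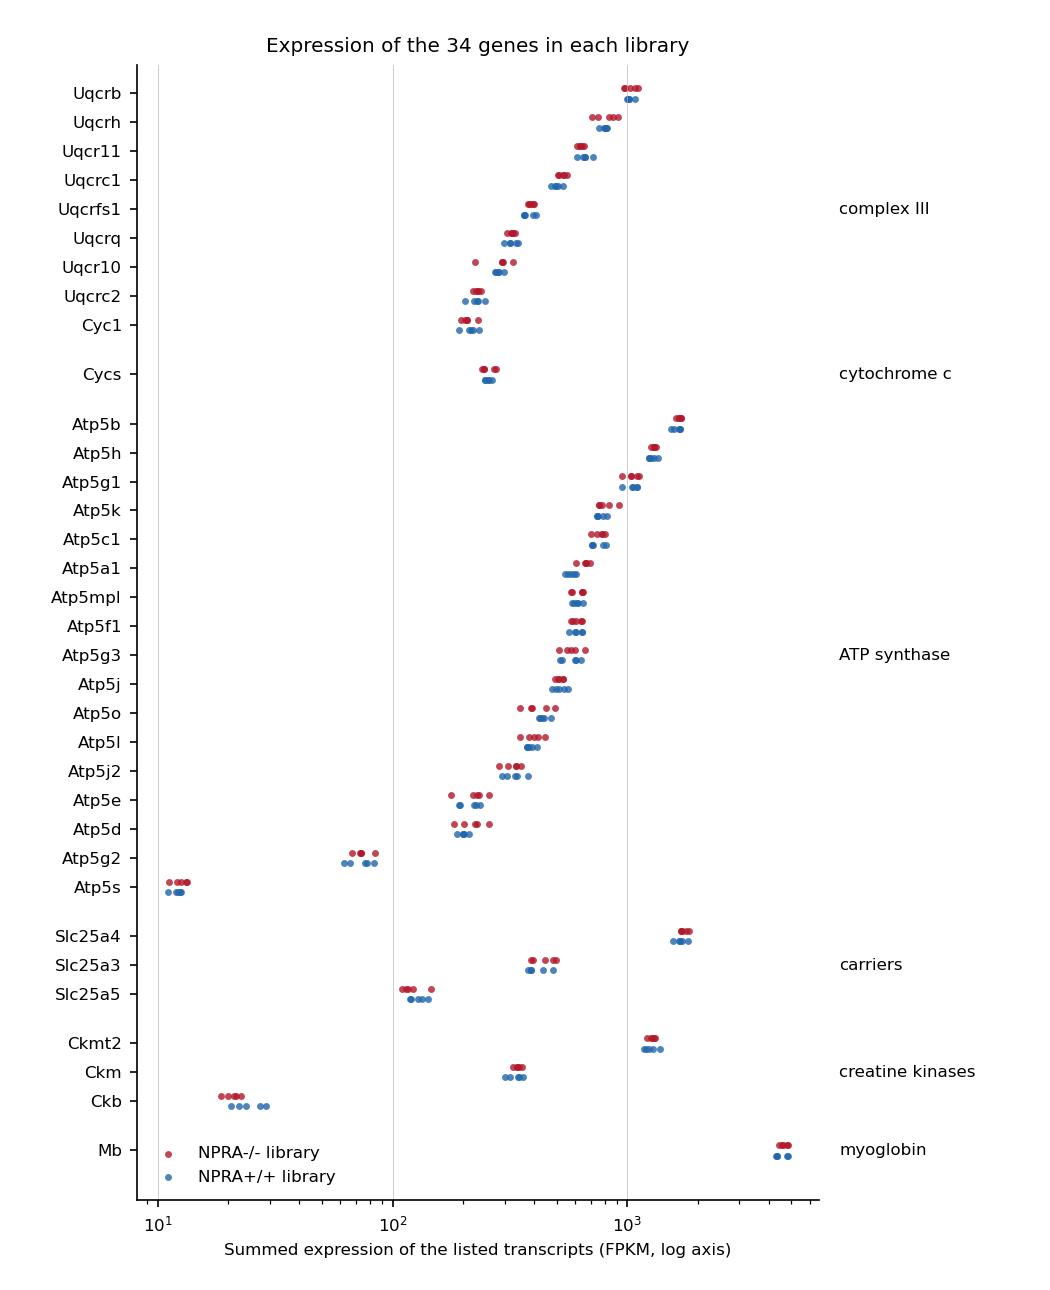
Summed FPKM (log axis) of the 34 genes, 1 point per library, with NPRA-/- libraries drawn above NPRA+/+ libraries in each row. Points of a gene lie close together, and some genes of the same complex overlap while others lie apart; Atp5s and Ckb lie lowest and Mb highest, with the genotypes overlapping in all rows but that of Atp5a1.

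Within complex III the levels fell into steps. Uqcrb, a small ubiquinone-binding subunit, was highest at 971 to 1113 FPKM over the 10 libraries, above Uqcrh, the hinge protein, at 704 to 917 FPKM. Uqcr11 (609 to 713 FPKM) overlapped Uqcrh in its range, and both lay above the core protein Uqcrc1 at 471 to 554 FPKM. The Rieske iron-sulfur protein Uqcrfs1 (362 to 408 FPKM) and the small subunit Uqcrq (299 to 341 FPKM) came next without overlap. Uqcr10 (225 to 327 FPKM) overlapped both Uqcrq and the second core protein Uqcrc2 (204 to 247 FPKM), which in turn overlapped Cyc1, cytochrome c1, at 192 to 233 FPKM. Within each of the 10 libraries the complex III genes nevertheless kept the order of their means, Uqcrc2 above Cyc1 included.

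ATP synthase covered a wider range. Atp5b at 1531 to 1694 FPKM, the stator subunit gene Atp5h at 1236 to 1357 FPKM and Atp5g1 at 954 to 1124 FPKM did not overlap each other. Atp5k, which encodes a small membrane subunit (741 to 925 FPKM), and Atp5c1 (698 to 813 FPKM) overlapped. Atp5a1 for the alpha subunit, Atp5mpl for a small proteolipid, Atp5f1 for the b subunit of the stator, Atp5g3 and Atp5j for coupling factor 6 shared a band from 479 FPKM, the lowest Atp5j library, to 694 FPKM, the highest Atp5a1 library. Below them, with some overlap with Atp5j, was Atp5o (349 to 490 FPKM), the oligomycin sensitivity conferring protein of the stator. Atp5l for subunit g of the membrane part (351 to 446 FPKM) lay within the range of Atp5o, and Atp5j2 for subunit f (284 to 379 FPKM) overlapped both. The central stalk genes Atp5e (177 to 257 FPKM) and Atp5d (182 to 258 FPKM) lay below these and overlapped each other. Atp5g2 stood at 61.9 to 83.9 FPKM and Atp5s at 11.004 to 13.4 FPKM, both apart from all other ATP synthase genes. Of 22 annotated symbols beginning with Atp5, 5 were not listed in the table, all annotated as pseudogenes (Atp5c1-ps, Atp5k-ps2, Atp5l-ps1, Atp5l-ps2 and Atp5l2-ps), and whether reads of their parent genes were shared with them was not tested.

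No gene of the 34 passed the test between genotypes. With limma and Benjamini-Hochberg adjustment over 10764 genes the count was 0 of 34, the lowest adjusted p being 0.833, for Atp5a1; over all genes tested 1 passed, which is 0.00929%. At an unadjusted limma p under 0.05 there were 2 of the 34, Atp5a1 higher and Ckb lower in NPRA-/-, against a background of 5.52% of all genes, 1.38% higher and 4.13% lower. The share of 2 in 34 is near that background. All 34 genes passed the filter on low values. In whole tissue, fewer cells of a type and less RNA per cell cannot be told apart in any of these values.

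The differences were small and their intervals narrow. The log2 differences, NPRA-/- minus NPRA+/+ on the log2(FPKM + 1) scale, ran from -0.22 to 0.19 with a median of 0.024, beside a median of -0.029 over all genes tested. Their median absolute size was 0.034, beside 0.081 for all genes, and their median standard error was 0.053, beside 0.108. Genes of like level were closer: with a mean of 200 FPKM or more, these medians were 0.031 and 0.050 for 30 members. For 238 genes outside the group they were 0.042 and 0.057. The 95% limma interval lay within 1.25-fold either way (0.32 on the log2 scale) for 33 of the 34 genes, the exception being Ckb; this held for 48.6% of all genes tested and for 86.6% of the 238 genes outside the group with a mean of 200 FPKM or more. The plot of differences by gene shows these intervals.

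**Figure D2:**
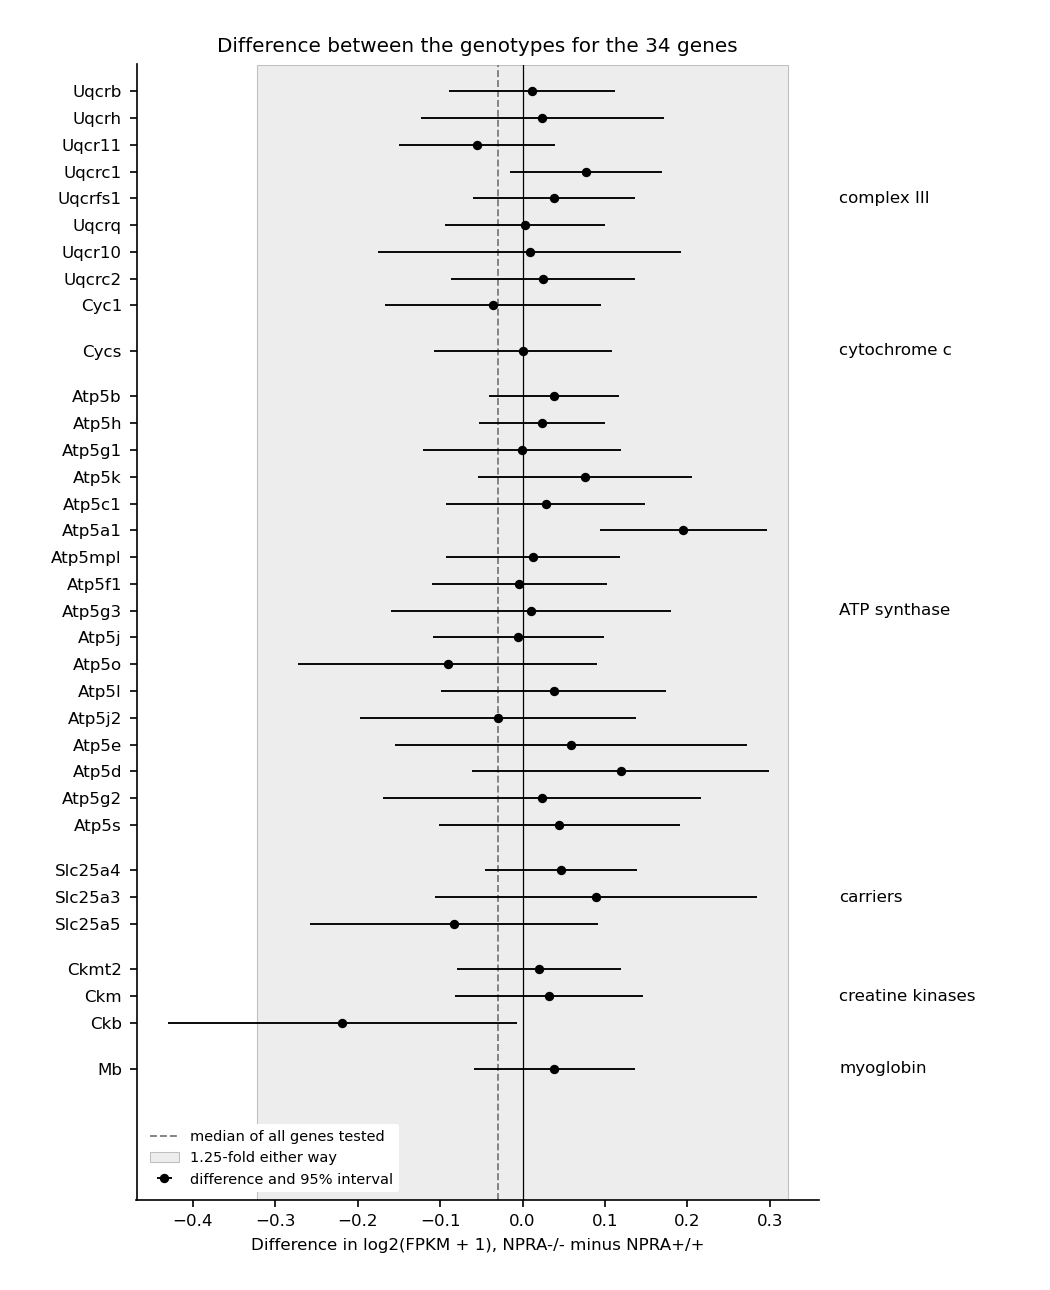
Difference in log2(FPKM + 1), NPRA-/- minus NPRA+/+, for each of the 34 genes with its 95% limma interval; the shaded band marks 1.25-fold either way and the dashed line the median of all genes tested (-0.029). All intervals but that of Ckb lie inside the band, and those of Atp5a1 and Ckb do not cross 0.

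Of the 34 genes 25 had a higher mean log2 value in NPRA-/- libraries and 9 a lower one, against 39.4% higher over all genes tested. Among the 238 abundant genes outside the group 161 were higher (67.6%), with a median of 0.024, so the count is close to that of other genes of like level (23 of the 30 members with a mean of 200 FPKM or more). The count of 25 became 19 after rescaling to the same sum, 29 with median-of-ratios scaling and 18 with quantile normalisation, 17 without library 217, and 18 without the 4 libraries in which Myl7 exceeded 50 FPKM. By role, 7 of 9 complex III genes, 12 of 17 ATP synthase genes, 2 of 3 carriers and 2 of 3 creatine kinases were higher, with median differences of 0.011, 0.024, 0.047 and 0.020; none of these passed the test.

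In complex III the most abundant gene, Uqcrb, had 1079, 971, 1113, 1028 and 979 FPKM in NPRA-/- libraries 217, 227, 231, 240 and 241, against 1005, 1021, 1083, 995 and 1021 FPKM in NPRA+/+ libraries 228, 230, 242, 243 and 255. The NPRA-/- libraries held both the highest and the lowest values, and the groups overlapped fully (log2 difference 0.011, 95% interval -0.090 to 0.11). Uqcrc1, the core protein gene at chromosome 9, 108936633 to 108949623, had 536, 530, 507, 510 and 554 FPKM in the NPRA-/- libraries, against 505, 471, 531, 498 and 494 FPKM in the NPRA+/+ libraries. All 5 NPRA-/- libraries lay above the NPRA+/+ mean, but library 242 of NPRA+/+ overlapped them (0.077, SE 0.042, limma adjusted p = 0.906). Cyc1, which hands electrons to cytochrome c, had 207, 207, 205, 196 and 231 FPKM in NPRA-/- libraries, against 212, 192, 221, 215 and 233 FPKM in NPRA+/+ libraries, with 4 of 5 NPRA-/- libraries below the NPRA+/+ mean. Its difference was -0.036 (95% interval -0.17 to 0.095). Of the other 6 complex III genes, Uqcr11 was lower in all 5 NPRA-/- libraries than the NPRA+/+ mean (-0.055, limma adjusted p = 0.914), and the rest lay between 0.0024 for Uqcrq and 0.038 for Uqcrfs1.

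Cycs, somatic cytochrome c, had 269.5, 246, 276, 244 and 239.7 FPKM in NPRA-/- libraries, against 258, 255, 266, 247 and 247 FPKM in NPRA+/+ libraries. Its means of 255 ± 16.4 FPKM in NPRA-/- and 255 ± 7.997 FPKM in NPRA+/+ libraries (SD, n = 5 each) were nearly equal, and the interval of the difference ran from -0.11 to 0.11 on the log2 scale.

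The catalytic head of ATP synthase is built from alpha and beta subunits, encoded by Atp5a1 and Atp5b. Atp5a1 (chromosome 18, 77773729 to 77782869, plus strand) had 694, 603, 659, 666 and 669 FPKM in NPRA-/- libraries, against 602, 542, 578, 559 and 592 FPKM in NPRA+/+ libraries. Every NPRA-/- library was above every NPRA+/+ library, though library 227 at 602.8 FPKM and library 228 at 602.1 FPKM were nearly equal. Atp5a1 was the only one of the 34 genes whose groups did not overlap; over all genes tested 1.08% did not overlap, 0.242% being higher and 0.836% lower in NPRA-/-. The means were 658 ± 33.5 FPKM in NPRA-/- and 575 ± 24.4 FPKM in NPRA+/+ libraries (SD, n = 5 each), and the log2 difference was 0.19 (SE 0.046, 95% interval 0.094 to 0.30, limma unadjusted p = 0.0014, adjusted p = 0.833). It did not pass the adjusted threshold.

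The sum for Atp5a1 rested on 2 listed transcripts, and the smaller one was uneven. Atp5a1-201 had 660, 597, 609, 404 and 645 FPKM in NPRA-/- libraries, against 596, 519.8, 559, 553 and 586 FPKM in NPRA+/+ libraries. Library 240 was the lowest of all 10 for this transcript, and the genotypes overlapped. Atp5a1-202 had 33.7, 5.85, 49.9, 262 and 24.1 FPKM in NPRA-/- libraries, against 5.86, 22.2, 19.6, 5.42 and 5.59 FPKM in NPRA+/+ libraries. In library 240 it took 39.4% of the gene's FPKM, and elsewhere 0.944 to 7.58%. With Atp5a1-201 alone the log2 difference was 0.031 and the limma unadjusted p was 0.805. That value depended most on library 240, as the other 4 NPRA-/- libraries lay above every NPRA+/+ library. In the fit over transcripts without library 240 the difference of Atp5a1-201 was 0.16 (limma unadjusted p = 0.0115, adjusted p = 0.8297). With any other single library left out the difference was -0.019 (without 217) to 0.052 (without 228). The limma unadjusted p in those fits was 0.71 (without 228) to 0.98 (without 230). Without the 4 libraries with Myl7 above 50 FPKM the difference of Atp5a1-201 was -0.095 (limma unadjusted p = 0.62). Without library 240 the summed gene kept an unadjusted limma p of 0.0038.

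Atp5b, the partner of Atp5a1 in the catalytic hexamer and the most abundant ATP synthase gene, had 1694, 1694, 1616, 1667 and 1665 FPKM in NPRA-/- libraries, against 1660, 1531, 1685, 1577 and 1670.2 FPKM in NPRA+/+ libraries. The groups overlapped, with a difference of 0.038 (95% interval -0.040 to 0.12). Among the other subunits Atp5d had the largest positive difference after Atp5a1 (0.12, 95% interval -0.061 to 0.30) and Atp5o the largest negative one (-0.091, 95% interval -0.27 to 0.091). In Atp5d, 4 of 5 NPRA-/- libraries were above the NPRA+/+ mean, and in Atp5o 2 of 5 were.

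The 3 subunit c genes kept their order in every library. Atp5g1 had 1102, 1038, 1041, 954 and 1124 FPKM in NPRA-/- libraries, against 1049, 954, 1099.5, 1102 and 1054 FPKM in NPRA+/+ libraries. Atp5g3 had 659, 575, 552, 511 and 602 FPKM in NPRA-/- libraries, against 527, 516, 605, 632 and 599.8 FPKM in NPRA+/+ libraries. Atp5g2 had 83.9, 73.2, 73.8, 67.5 and 72.7 FPKM in NPRA-/- libraries, against 66.1, 61.9, 76.3, 78.1 and 83.8 FPKM in NPRA+/+ libraries. The genotypes overlapped for each gene, with log2 differences of -0.00074, 0.0099 and 0.024 for Atp5g1, Atp5g3 and Atp5g2, whose signs changed with the scaling or with the libraries left out. Atp5g1 made up 61.7% ± 1.16 of the 3 genes' FPKM in NPRA-/- and 61.9% ± 1.31 in NPRA+/+ libraries (SD, n = 5 each; exact permutation p = 0.794, two-sided). Atp5g3 made up 33.96% ± 1.05 in NPRA-/- and 33.8% ± 1.08 in NPRA+/+ libraries (exact permutation p = 0.833), and Atp5g2 4.35% ± 0.190 in NPRA-/- and 4.30% ± 0.320 in NPRA+/+ libraries (exact permutation p = 0.738). After adjustment over the 6 family shares each of these p-values was 0.857, and no difference in the make-up of the family was detectable.

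**Figure D3:**
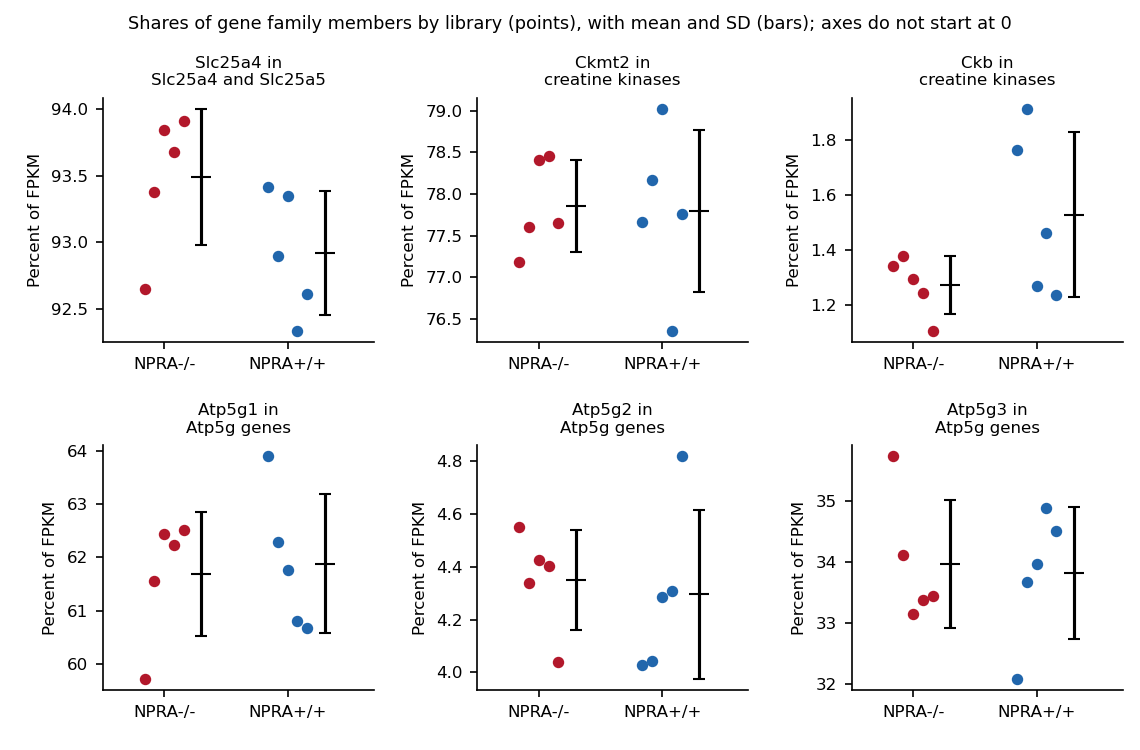
Share of 6 genes in the FPKM of their family (percent, axes not starting at 0), 1 point per library, with the mean and SD of the 5 NPRA-/- libraries left of the 5 NPRA+/+ libraries. The genotypes overlap in all 6 panels; the share of Ckb spans 1.11 to 1.38% in NPRA-/- libraries and 1.24 to 1.91% in NPRA+/+ libraries.

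The carriers had differences of both signs. Slc25a4, the adenine nucleotide translocator of heart and skeletal muscle, had 1834, 1715, 1777, 1694 and 1697 FPKM in NPRA-/- libraries, against 1683, 1571, 1809, 1712 and 1669 FPKM in NPRA+/+ libraries. All 5 NPRA-/- libraries lay above the NPRA+/+ mean of 1689 FPKM, and the groups overlapped (0.047, 95% interval -0.046 to 0.14). Slc25a5, the translocator form of proliferating and many other cells, had 145, 122, 117, 114 and 110.1 FPKM in NPRA-/- libraries, against 119, 120.1, 129, 142 and 133 FPKM in NPRA+/+ libraries. Here 4 of 5 NPRA-/- libraries were below the NPRA+/+ mean, and library 217 was the highest of all 10 (-0.083, SE 0.079, limma adjusted p = 0.923). Without the 4 libraries with Myl7 above 50 FPKM, which include library 217, its difference was -0.20 with a limma unadjusted p of 0.041. Without library 217 alone it was -0.15 with a limma unadjusted p of 0.0362. The lowest limma adjusted p of the 34 genes in these fits was 0.960 and 0.902. With any other single library left out the Slc25a5 difference was -0.11 (without 228) to -0.046 (without 243), with limma unadjusted p of 0.22 to 0.58.

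Slc25a4 took 93.5% ± 0.512 of the FPKM of both translocators in NPRA-/- and 92.9% ± 0.466 in NPRA+/+ libraries (SD, n = 5 each). The difference of 0.568 percentage points gave p = 0.0873 in a two-sided exact permutation test, and 0.381 after Benjamini-Hochberg adjustment over the 6 family shares compared; with 5 libraries against 5 no p below 0.00794 is possible. The coding sequences of the pair were 77.4% identical. Slc25a3, the phosphate carrier, had 497, 446, 388, 396 and 482 FPKM in NPRA-/- libraries, against 389, 376, 389, 439 and 482 FPKM in NPRA+/+ libraries. High and low libraries occurred in both genotypes (0.089, 95% interval -0.11 to 0.28), and without the 4 libraries with high Myl7 the difference was -0.051.

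The creatine kinases were led by the mitochondrial form. Ckmt2, which sits in the intermembrane space of muscle mitochondria, had 1217, 1272, 1309.8, 1261 and 1304 FPKM in NPRA-/- libraries, against 1201, 1184, 1377, 1237 and 1287 FPKM in NPRA+/+ libraries. Ckm, the muscle form of the cytosol, had 339, 345, 339, 326 and 357 FPKM in NPRA-/- libraries, against 318, 302, 343, 359 and 347 FPKM in NPRA+/+ libraries. In both genes the NPRA-/- libraries lay inside the range of the NPRA+/+ libraries, with differences of 0.020 and 0.032. Ckmt2 held 77.9% ± 0.552 of the FPKM of the 3 kinases in NPRA-/- and 77.8% ± 0.968 in NPRA+/+ libraries (SD, n = 5 each; exact permutation p = 0.857, two-sided).

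Ckb (chromosome 12, 111669361 to 111672338, minus strand), the form known from brain and present in smooth muscle and other non-muscle cells, was the most variable of the 34 genes. It had 21.2, 22.6, 21.6, 20.01 and 18.6 FPKM in NPRA-/- libraries, against 27.3, 29.0, 22.1, 23.7 and 20.5 FPKM in NPRA+/+ libraries. All 5 NPRA-/- libraries were below the NPRA+/+ mean, while NPRA+/+ libraries 242 and 255 lay within the NPRA-/- range. The means were 20.8 ± 1.56 FPKM in NPRA-/- and 24.5 ± 3.56 FPKM in NPRA+/+ libraries (SD, n = 5 each), and the log2 difference was -0.22 (SE 0.096, 95% interval -0.43 to -0.0071, limma unadjusted p = 0.0439, adjusted p = 0.893). Its highest values were in libraries 228 and 230, which had the highest sums of the 4 smooth muscle markers, 277 and 179 FPKM. Library 255 had a sum of 175 FPKM and 20.5 FPKM of Ckb. The sum in library 228 was mostly Acta2, at 240 FPKM. The other 3 markers were highest elsewhere, Myh11 in library 230 (26.2 FPKM) and Tagln and Cnn1 in library 243 (22.2 and 3.81 FPKM). Over all libraries the smooth muscle sums were 75.2 to 152 FPKM in NPRA-/- and 81.5 to 277 FPKM in NPRA+/+. Sums of the 5 fibroblast markers were highest in libraries 230 (421 FPKM) and 243 (393 FPKM). They were 346 FPKM in library 228 and lowest in library 241 (303 FPKM). Macrophage marker sums were 59.1 to 71.0 FPKM in NPRA-/- and 70.1 to 84.7 FPKM in NPRA+/+ libraries, highest in library 255. Endothelial marker sums were highest in library 240 (218 FPKM). The part of any of these cell types in the Ckb values was not tested. The Ckb share of the 3 kinases was 1.27% ± 0.106 in NPRA-/- and 1.53% ± 0.301 in NPRA+/+ libraries (SD, n = 5 each; exact permutation p = 0.127, two-sided, and 0.381 after adjustment over the 6 shares).

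Mb had 4613, 4426, 4787, 4580.4 and 4821 FPKM in NPRA-/- libraries, against 4308, 4333, 4793, 4838 and 4360.4 FPKM in NPRA+/+ libraries. Libraries of NPRA+/+ held the lowest and the highest value, and the difference was 0.039 (95% interval -0.059 to 0.14).

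Across the 10 libraries the genes varied little. The coefficient of variation ran from 2.94% for Atp5h to 14.3% for Ckb, with a median of 5.77%, beside 14.2% for all genes tested. The ratio of the highest to the lowest library ran from 1.10 for Atp5h to 1.56 for Ckb, with a median of 1.20, beside 1.57 for all genes tested; Ckb was the only one above 1.5.

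What variation there was ran along libraries in both genotypes. Library 217 of NPRA-/- held the highest value for 13 of the 34 genes, and 29 lay above their own 10-library mean there. In library 242 of NPRA+/+ 29 also lay above their mean. In contrast, 4 lay above their mean in library 240 of NPRA-/-, 7 in library 228 and 6 in library 230 of NPRA+/+. The lowest values were in library 240 for 11 genes and in library 230 for 10 genes. The median deviation on the log2 scale was 0.069 in library 217, 0.044 in 231 and -0.074 in 240 of NPRA-/-, against 0.062 in library 242, -0.059 in 228 and -0.067 in 230 of NPRA+/+. Each genotype thus had high and low libraries, and the group medians overlapped, from -0.074 to 0.069 in NPRA-/- and from -0.067 to 0.062 in NPRA+/+. The 4 libraries with high Myl7 had median deviations of 0.069 (217) and -0.00048 (227) in NPRA-/- and of -0.067 (230) and 0.062 (242) in NPRA+/+; the part of Myl7-bearing tissue in this pattern was not tested.

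**Figure D4:**
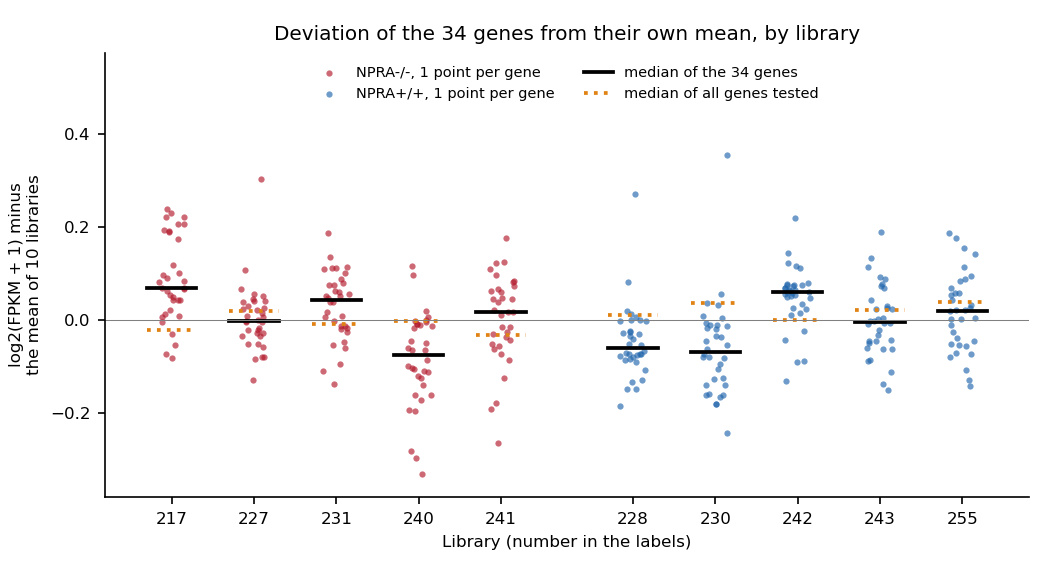
Deviation of each of the 34 genes from its own mean of log2(FPKM + 1) over the 10 libraries, 1 point per gene, with NPRA-/- libraries left of NPRA+/+ libraries; bars mark the median of the 34 genes and dotted lines that of all genes tested. The 34 genes lie high in libraries 217 and 242 and low in 240, 228 and 230, with both genotypes in each set.

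At the level of single transcripts 69 of the 73 were tested. With limma and adjustment over 17641 transcripts 0 passed (lowest adjusted p = 0.900), against a background of 0.0283%, and 0 had an unadjusted p under 0.05, against 5.5% (2.04% higher and 3.47% lower in NPRA-/-). The genotypes overlapped for all of them, against 1.02% of all transcripts tested that did not. Of the 50 with a mean of 10 FPKM or more, 7 had a highest library above 2 times the lowest. The widest spreads were in Atp5a1-202 (5.42 to 262 FPKM), Atp5c1-205 (5.51 to 94.1 FPKM) and Atp5d-201 (8.32 to 142 FPKM). The high libraries of Atp5c1-205 and Atp5d-201 were of both genotypes. The 4 highest libraries of Atp5a1-202 were NPRA-/-, while library 227 of NPRA-/- lay among the NPRA+/+ libraries (log2 difference 1.83, limma unadjusted p = 0.0577, adjusted p = 0.903).

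**Figure D5:**
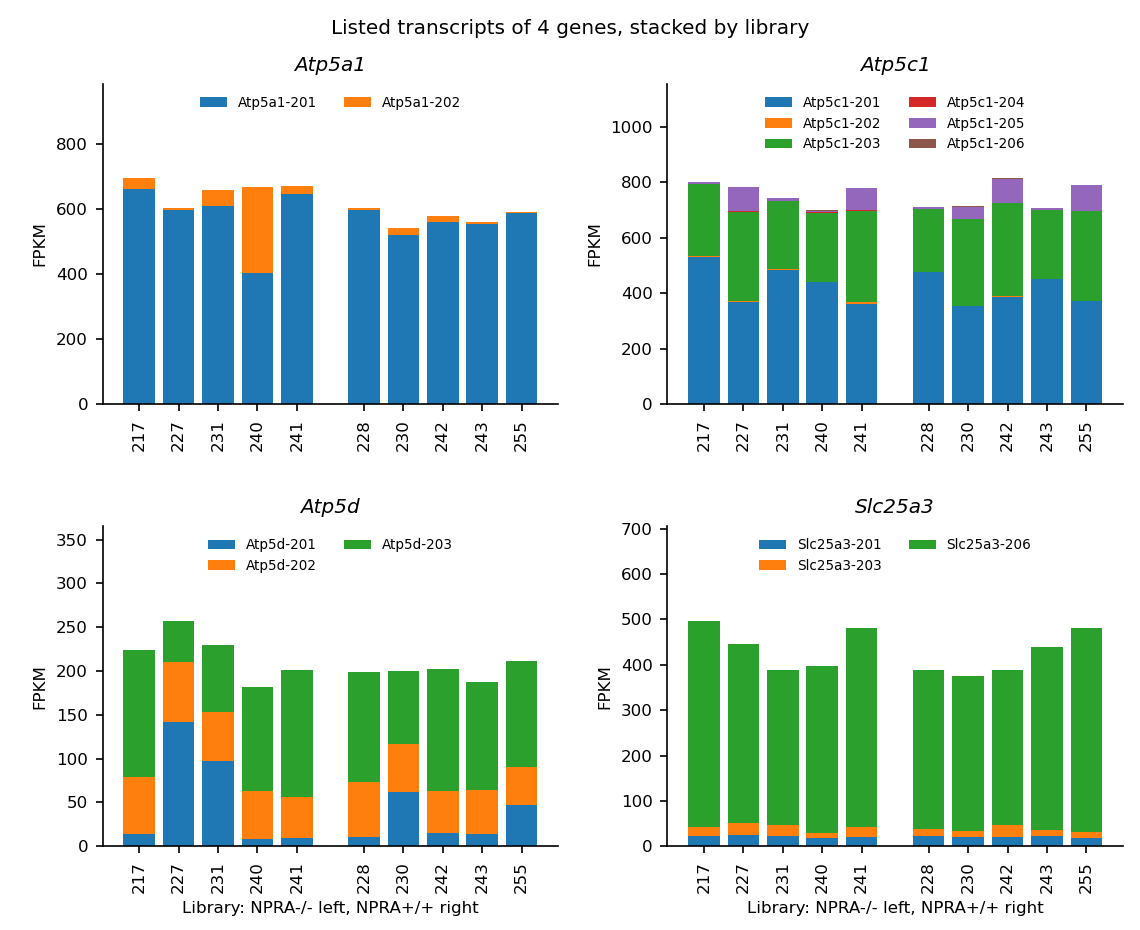
FPKM of the listed transcripts of Atp5a1, Atp5c1, Atp5d and Slc25a3, stacked for each library, with NPRA-/- libraries left and NPRA+/+ libraries right. The sums vary less than the parts: Atp5a1-202 is large in library 240 alone, Atp5c1-205 and Atp5d-201 are large in libraries of both genotypes, and Slc25a3-206 forms most of Slc25a3 in all 10 libraries.

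Slc25a3 came mostly from transcripts with the 125-base exon shown above. Slc25a3-206 made up 91.4, 88.5, 88.1, 92.6 and 91.2% of the 3 listed transcripts in NPRA-/- libraries, against 90.3, 91.03, 88.1, 92.0 and 93.3% in NPRA+/+ libraries. The groups overlapped, with means of 90.4% ± 1.98 in NPRA-/- and 90.95% ± 1.97 in NPRA+/+ (SD, n = 5 each). These shares and those that follow were chosen after their values were seen and were not tested.

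Atp5c1 split between the form without the 37-base exon and the forms with it. Atp5c1-201, without it, made up 67.2, 53.1, 65.9, 63.9 and 51.5% of the 3 transcripts compared in NPRA-/- libraries, against 67.8, 53.0, 53.4, 64.4 and 53.3% in NPRA+/+ libraries. The means were 60.3% ± 7.40 in NPRA-/- and 58.4% ± 7.17 in NPRA+/+ (SD, n = 5 each), but the libraries fell into a low set from 51.5 to 53.4% and a high set from 63.9 to 67.8%, each with both genotypes. The 5 libraries of the low set, 227 and 241 of NPRA-/- and 230, 242 and 255 of NPRA+/+, were those in which Atp5c1-205 took 6.15 to 11.9% of the gene, against 0.777 to 1.22% in the others. The summed gene ranged from 698 to 813 FPKM.

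Atp5d-201 made up 6.21, 55.2, 42.7, 4.56 and 4.87% of Atp5d, the delta subunit gene, in NPRA-/- libraries, against 5.61, 31.1, 7.56, 7.67 and 22.1% in NPRA+/+ libraries. Libraries 227 and 231 of NPRA-/- and 230 and 255 of NPRA+/+ were high. In library 227 the high share of Atp5d-201 went with the highest sum of the gene, 258 FPKM.

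The genes that work with these 34 were examined through a list of 36 partners, of which 34 were listed and tested; Ckmt1 and Slc25a31 were not listed. With limma 0 of the 34 passed (lowest adjusted p = 0.891), against 0.00929% of all genes tested. In NPRA-/- libraries 20 were higher and 14 lower, against 39.4% higher over all genes tested. Their median log2 difference was 0.0098, beside -0.029 for all genes. At an unadjusted limma p under 0.05 there was 1, higher in NPRA-/-, against 5.52% of all genes, 1.38% higher and 4.13% lower. That gene was Ak4, a mitochondrial adenylate kinase, with 7.38, 4.85, 8.58, 5.98 and 5.07 FPKM in NPRA-/- libraries, against 4.73, 4.87, 5.19, 4.25 and 4.33 FPKM in NPRA+/+ libraries. All 5 NPRA-/- libraries exceeded the NPRA+/+ mean and the groups overlapped (0.35, SE 0.13, limma unadjusted p = 0.0233, adjusted p = 0.891). Of the subunits encoded in the mitochondrial genome, mt-Cytb, cytochrome b of complex III, had 17534 ± 1049 FPKM in NPRA-/- and 16949 ± 469 FPKM in NPRA+/+ libraries (SD, n = 5 each). In ATP synthase, mt-Atp6 had 9745 ± 534 FPKM in NPRA-/- and 9185 ± 420.2 FPKM in NPRA+/+ libraries, and mt-Atp8 13016 ± 2105 FPKM in NPRA-/- and 12423 ± 582 FPKM in NPRA+/+ libraries. Their log2 differences were 0.047, 0.085 and 0.054, none of which passed the test. Hccs, which attaches heme to cytochromes c and c1, and Ampd3, an AMP deaminase, had the smallest unadjusted p among the lower partners, with differences of -0.092 and -0.11 and adjusted limma p of 0.920 and 0.914. Of the 8 regulators 5 were higher and 3 lower, with Tfam, the mitochondrial DNA packaging factor, at 13.2 ± 1.01 FPKM in NPRA-/- and 11.99 ± 0.818 FPKM in NPRA+/+ libraries and Nrf1, nuclear respiratory factor 1, at 3.35 ± 1.14 FPKM in NPRA-/- and 2.53 ± 0.571 FPKM in NPRA+/+ libraries (SD, n = 5 each).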

How the data were processed

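Poly(A) RNA of mouse myocardium was sequenced on an Illumina HiSeq from stranded libraries, per the labels' protocols. Reads were handled with cutadapt, HISAT2 and StringTie on the mm10 build, per the submitters' processing notes, with no versions or settings stated. In the deposited table each transcript has 1 value for each library, with no unit named. The values were taken as FPKM computed by the authors, which is an assumption. The totals differ between libraries, but the table lists only part of the annotated transcripts, so totals in TPM could differ too. TPM would differ by 1 factor per library. Depth is unknown, so no counting interval is given.

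Of 22157 transcripts 22107 matched GENCODE vM21 and were summed per symbol to 11777 genes. Genes with a mean of at least 1 FPKM in 1 genotype group were tested on log2(FPKM + 1), a scale that understates differences of low genes, with limma 3.58.1 (empirical Bayes with trend) in R 4.3.3 and Benjamini-Hochberg adjustment at 0.05 over all of them. Family shares were tested with exact permutation over all splits of 5 against 5 (scipy 1.17.1, numpy 2.4.6, pandas 2.3.3 in Python 3.11.15). The fits were tested on simulated data with 200 changed genes. Values by library are given for the carriers, creatine kinases, myoglobin, cytochromes, subunit c genes, the most abundant gene of each role, and any gene with an unadjusted p under 0.05 or groups that do not overlap. Of the partners, the mitochondrially encoded ones and the 2 with the smallest p in each direction are named. Uqcr11, Uqcrc1, Atp5d and Atp5o, Tfam, Nrf1 and the transcripts described singly were added after their values were seen. The members, lists and tests were chosen with earlier results of these data known. Circular RNA was not analysed here. Alternatives were other pseudocounts (0.1 and 0.5), filters, scalings and variance models, the most abundant transcript of each gene, each library left out in turn and, chosen after seeing the data, the 4 libraries with Myl7 above 50 FPKM left out together. Figures were drawn with matplotlib 3.10.9.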

Additional observations from a re-analysis of the deposited data

How the results depend on the processing

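No member gene and no member transcript passed the adjusted limma threshold under any alternative run. The count at an unadjusted p under 0.05, 2 in the reported fit, was 1 without the variance trend and 1 with the most abundant transcript of each gene, and 1 to 3 when single libraries were left out (1 without 231, 241, 228, 230 or 243, and 3 without 242). Atp5a1 kept an unadjusted p of 0.0003 to 0.0085 except with its most abundant transcript alone (0.805). The genes behind the count changed between the fits. Uqcrc1 entered it with median-of-ratios scaling (limma unadjusted p = 0.0455) and without library 242 (0.0387). Slc25a5 entered it without library 217 (0.0362) and without the 4 libraries with high Myl7 (0.041). Ckb passed 0.05 neither with median-of-ratios scaling (0.0738), quantile normalisation (0.0642) or no trend (0.0525), nor without the 4 libraries with high Myl7 (0.0995), nor without 217, 231, 240, 241, 228, 230 or 243.

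The median difference of the 34 genes stayed above 0: it was 0.0021 (without library 217) to 0.039 (without library 240) with single libraries left out, 0.059 with median-of-ratios scaling, 0.019 with quantile normalisation, 0.011 after rescaling to the same sum and 0.010 without the 4 libraries with high Myl7; the number higher in NPRA-/- was 17 to 29 with single libraries left out and 24 with the most abundant transcripts. The median of all genes moved from -0.029 as reported to 0.0016 with median-of-ratios scaling, -0.00021 with quantile normalisation and -0.041 after rescaling to the same sum. Of 336 values for 16 named genes, 300 kept their direction and 36, in 9 genes, changed sign; the cause was not tested. After rescaling to the same sum these were Cycs (-0.013), Atp5g3 (-0.0031) and Uqcrb (-0.0022). With median-of-ratios scaling Atp5g1 was 0.034. With quantile normalisation they were Ckmt2 (-0.035), Mb (-0.038), Cycs (-0.034), Atp5g1 (0.019), Atp5g3 (-0.016) and Uqcrb (-0.0050). Without the 4 libraries with high Myl7 they were Slc25a3 (-0.051), Ckm (-0.0033), Atp5g2 (-0.085) and Atp5g3 (-0.078), and the shares of Atp5g1, Atp5g2 and Atp5g3 differed by 0.599, -0.0956 and -0.504 percentage points. With the most abundant transcript Atp5g1 was 0.0018 and the Ckmt2 share differed by -0.0384 points.

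With single libraries left out the log2 differences ranged from -0.035 to 0.034 for Atp5g1, -0.034 to 0.074 for Atp5g2, -0.038 to 0.054 for Atp5g3, -0.0035 to 0.059 for Ckm, -0.0015 to 0.053 for Ckmt2, -0.028 to 0.022 for Cycs and -0.016 to 0.033 for Uqcrb. The share differences ranged from -0.500 to 0.306 points for Atp5g1, -0.0126 to 0.185 for Atp5g2, -0.300 to 0.409 for Atp5g3 and -0.296 to 0.372 for Ckmt2. The sample titles give a number and a genotype and do not pair libraries across the genotypes, so no paired analysis was made. Any shared litter was therefore not accounted for. The depth is unknown, so it cannot be said which values it limits.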
